A study of Mus musculus with 6 samples.

Results

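The genes described here carry iron into, within and out of cells, or regulate that traffic, and were measured in the forebrains of 6 mice: Trf, Tfrc, Slc11a2, Fth1, Ftl1, Slc40a1, Cp, Aco1 and Ireb2. They were taken by name, through their Ensembl identifiers, and all 9 of 9 were found among the 35275 genes of the deposited table. Messenger RNA was sequenced at postnatal day 9 from 3 conditional knockout mice (cKO, Pdgfra-CreER:Parp1fl/fl) and 3 control littermates (non-Cre Ctrl, Parp1fl/fl), all C57BL/6, of both sexes. Every mouse, controls included, carried the floxed Parp1 alleles and was given tamoxifen by intraperitoneal injection on postnatal days 1, 2 and 3, so the groups differ in the recombinase. Pdgfra drives the recombinase and marks oligodendrocyte precursors, while the libraries hold RNA of the whole forebrain. In such bulk RNA, fewer cells of a type and less RNA per cell cannot be told apart. No label ties a library to a litter, so p-values measure the spread between these samples.

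Iron travels in blood and brain fluid bound to transferrin (Trf), enters cells through the transferrin receptor (Tfrc) and crosses the endosomal membrane through the transporter DMT1 (Slc11a2). Inside the cell it is stored in a shell built of ferritin heavy and light chains (Fth1 and Ftl1), or leaves through ferroportin (Slc40a1) with the help of ferroxidases such as ceruloplasmin (Cp). The iron regulatory proteins (Aco1 and Ireb2) bind hairpins in messenger RNAs when iron is scarce, which blocks translation where the hairpin precedes the coding sequence and stabilises the message where several follow it. In the brain, oligodendrocytes are rich in iron and ferritin and are a main source of transferrin once mature, and they need iron for myelin synthesis.

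The hairpins, known as iron-responsive elements, are shown because they mark the messages that the regulators read; translation itself was not measured. They were searched for on the sense strand of the untranslated regions of GENCODE M21 protein-coding transcripts (build mm10) as CNNNNNCAGTGN followed by 5 bases that pair with the 5 before the loop, G with T allowed. Of the 9 genes, 4 held at least 1, and the match is a description of the letters. In the lines below the unpaired C and the 6-base loop are in capitals.
Fth1, 5′ untranslated region, exon 1, chr19:9982732-9982760, plus strand: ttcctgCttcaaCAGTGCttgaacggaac
Ftl1, 5′ untranslated region, exon 1, chr7:45459779-45459807, minus strand: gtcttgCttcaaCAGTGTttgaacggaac
Slc40a1, 5′ untranslated region, exon 1, chr1:45925465-45925493, minus strand: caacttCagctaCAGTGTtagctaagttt
Tfrc, 3′ untranslated region, exon 19, chr16:32631219-32631247, plus strand: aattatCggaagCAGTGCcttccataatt
Tfrc, 3′ untranslated region, exon 19, chr16:32631598-32631626, plus strand: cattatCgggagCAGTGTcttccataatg
Tfrc, 3′ untranslated region, exon 19, chr16:32631663-32631691, plus strand: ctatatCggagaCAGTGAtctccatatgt
Tfrc, 3′ untranslated region, exon 19, chr16:32631710-32631738, plus strand: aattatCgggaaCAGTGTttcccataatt

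The ferritin hairpins were nearly the same sequence, with 26 of 29 bases matching between Fth1 and Ftl1, and each matched that of Slc40a1 at 13 of 29. The search itself fixed the letters C and CAGTG, so these match in every pair. Hairpins of this form were rare. They were found in the 5′ regions of 28 of 20520 genes (0.136%) and the 3′ regions of 127 of 20867 (0.609%), whereas CNNNNNCAGTGN alone, followed by any 5 bases, was found in 10.7% and 35.6% of them. Regions differ in length between genes, so these shares are not per base.

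Total counts ran from 17262042 to 29310193 per library. Parp1, the targeted gene, was at 90.8, 97.3 and 85.6 CPM (counts scaled to library size by TMM) in control replicates 1, 2 and 3 and at 80.8, 79.7 and 79.1 CPM in cKO replicates 1, 2 and 3. Neurons, astrocytes, microglia and endothelium were all represented by their markers, as a forebrain label implies. Control replicate 3 stood apart in markers of brain region. Its 10 striatal markers summed to 495 CPM against 1191 to 1486 in the other 5 libraries, and its 10 thalamic markers to 738 against 288 to 342. Of the thalamic markers Prkcd alone went the other way, at 29.7 CPM against 33.5 to 39.5. Control replicate 1 alone expressed the Y-linked gene Ddx3y, at 64.8 CPM against at most 0.0493. It also nearly lacked Xist, at 0.173 CPM against 962 to 1044 in the other libraries. By these genes the only male was a control, so sex was not balanced between the groups. Values without each of these libraries are given where they change a direction.

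None of the 9 genes was called between cKO and control, at an adjusted p under 0.05 by edgeR's quasi-likelihood test over all 16938 genes tested. Across all genes 0.266% were called, and a share that small gives no called gene among 9. At an unadjusted p under 0.05 there were also 0 of 9, against 6.27% of all genes, and DESeq2 and limma-voom likewise called 0. Their log2 fold changes ran from -0.10 (Ireb2) to 0.18 (Cp), with a median of 0.06 against -0.001 over all genes, and 7 were positive and 2 negative. For 1 of the 9, Ireb2, the values of the groups lay apart, which held for 11.9% of all genes.

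Measured per length, the 9 genes spanned a wide range and, apart from the order of Cp and Slc40a1, kept their order in all 6 libraries. On the deposited FPKM scale (fragments per kilobase, scaled to the library total), the mean over 6 libraries was 710 for Ftl1 and 589 for Fth1, above 99.8% of tested genes. Ftl1 exceeded Fth1 in 6 of 6 libraries, although their ranges (592 to 794 and 533 to 646) overlapped. Tfrc followed at 32 FPKM, then Ireb2 at 20.9, Aco1 at 14.7 and Slc11a2 at 11.5, with no overlap between neighbours. Cp (4.03 FPKM) and Slc40a1 (3.72 FPKM) could not be ordered, since Cp was the higher in 4 of 6 libraries and their ranges overlapped. Trf came last, at 0.326 FPKM, above 5.07% of tested genes. That rank is of the counted reads only. Most exon bases of Trf are shared with a read-through gene, as described below, and what part of the transferrin messages its row holds is not known.

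**Figure D1:**
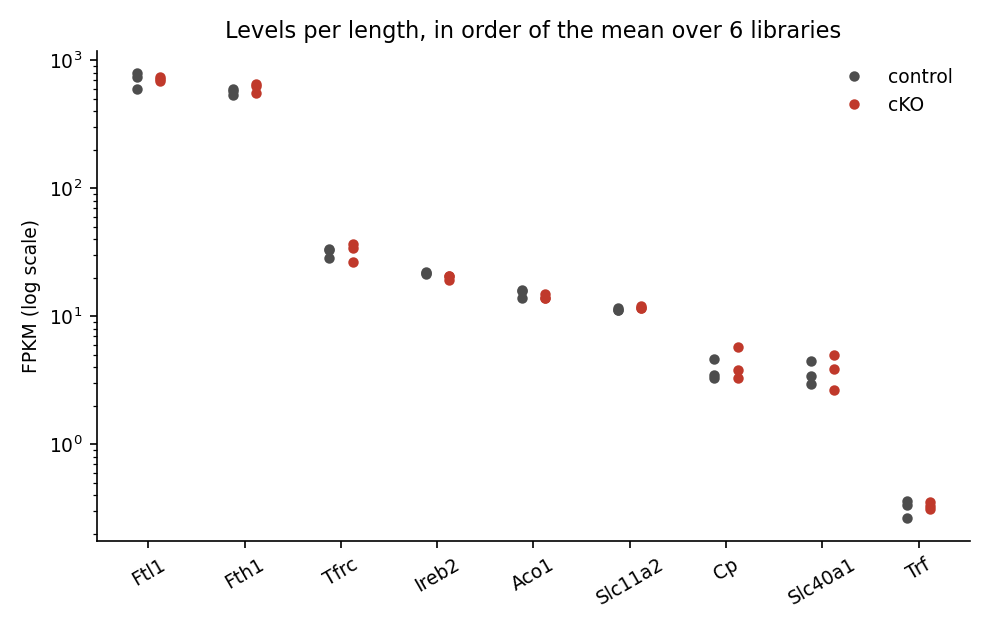
Deposited FPKM of the 9 genes on a log axis, in order of the mean over 6 libraries; each point is 1 library, grey for control and red for cKO. The ferritin genes lie between 533 and 794, Trf between 0.264 and 0.361, and the points of the groups lie close together beside the distances between most genes.

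The receptor for transferrin-bound iron did not differ detectably. Tfrc (ENSMUSG00000022797, chromosome 16, 32608920 to 32632794) was at 139, 163 and 163 CPM in control replicates 1 to 3 and at 176, 168 and 132 CPM in cKO replicates 1 to 3. The cKO group held both the highest and the lowest library, so its values enclosed the controls. Group means were 155 ± 13.5 CPM in controls and 159 ± 23.2 CPM in cKO (SD, n = 3 mice each). On the log2 scale cKO differed from control by 0.03 (95% interval -0.21 to 0.27, edgeR adjusted p = 0.974). The interval covers changes between a fall of 13.6% and a rise of 20.9%, and larger changes lie outside it. The sign was not stable, at -0.04, -0.05 and -0.02 without control replicate 1, cKO replicate 1 and cKO replicate 2.

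Slc11a2, which moves ferrous iron out of endosomes (ENSMUSG00000023030, chromosome 15, 100387898 to 100425072), was the steadiest of the 9. It was at 50.8, 49.2 and 49.4 CPM in controls and at 50.6, 53.4 and 51.9 CPM in cKO. All 6 libraries lay within 1.09-fold of each other, and the lowest cKO value lay within the range of the controls. The log2 fold change was 0.06 (95% confidence interval -0.08 to 0.20, edgeR adjusted p = 0.904). The gene is known to make messages with and without a 3′ hairpin of a less regular form, which the search above does not look for and a count per gene does not separate. Its exons share 402 bases with Gm5475 on the opposite strand, a gene with 3 to 8 counts per library.

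Both ferritin subunit genes were among the most abundant messages and neither was called. Fth1, the heavy chain that oxidises iron as it enters the shell (ENSMUSG00000024661, chromosome 19, 9980598 to 9985098), was at 519, 493 and 466 CPM in controls and at 469, 546 and 570 CPM in cKO. In cKO, 2 libraries lay above every control and the other lay among the controls. Means were 492 ± 26.2 and 529 ± 53.1 CPM (SD, n = 3 mice each), and the log2 fold change was 0.10 (95% confidence interval -0.07 to 0.28, edgeR adjusted p = 0.879).

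Ftl1, the light chain that helps the stored iron mineralise (ENSMUSG00000050708, chromosome 7, 45457944 to 45459884), was at 766, 709 and 578 CPM in controls and at 654, 689 and 734 CPM in cKO. The cKO values all fell inside the range of the controls, whose lowest library was replicate 3. The log2 fold change was 0.02 (95% confidence interval -0.19 to 0.23, edgeR adjusted p = 0.986), with a sign that turned to -0.10 without control replicate 3 and to -0.03 without cKO replicate 3. Microglia are rich in ferritin, and their 10 markers summed to 301 to 450 CPM in controls and to 463 to 566 CPM in cKO, with none at 0. Of these 10 markers 0 were called, against 0.266% of all genes, and all 10 had a positive log2 fold change (median 0.47). Of the 10, 7 had an unadjusted p under 0.05 against 6.27% of all genes, and in 8 the groups lay apart against 11.9%. Their part in the ferritin values was not tested.

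The ferritin genes have many processed copies in the mouse genome, and reads of a copy and its parent can be confused. The table held 7 named ferritin pseudogenes, whose counts together came to 0.140% to 0.245% of those of Fth1 and Ftl1. Exons of Ftl1 also share 355 bases with Gm10252 on the opposite strand and 109 bases with the microRNA gene Gm22133 on the same strand. The values of both ferritin genes are less certain for that.

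The balance of the subunits was compared within each library. The ratio of Fth1 to Ftl1 in FPKM was 0.757, 0.777 and 0.901 in control replicates 1 to 3 and 0.801, 0.886 and 0.869 in cKO replicates 1 to 3. The highest ratio was that of control replicate 3, and the groups overlapped. The mean log2 ratio was 0.07 higher in cKO (exact two-sided permutation test, p = 0.5, n = 3 mice each; the smallest p this design allows is 0.1).

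The ratio of Tfrc to Fth1 sets a message with hairpins at its 3′ end against one with a hairpin at its 5′ end. The 5′ hairpin acts on translation, which was not measured, so this ratio of messages is no measure of the regulators' activity. The ratio was 0.0476, 0.0585 and 0.0618 in controls and 0.0664, 0.0544 and 0.0411 in cKO, again with the highest and lowest values both in cKO. The mean log2 ratio was lower in cKO by an amount given as -0.07 (exact two-sided permutation test, p = 0.7, n = 3 mice each). Without cKO replicate 3 the difference was 0.11, and without control replicate 3 it was 0.00, so its direction rested on these libraries.

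**Figure D2:**
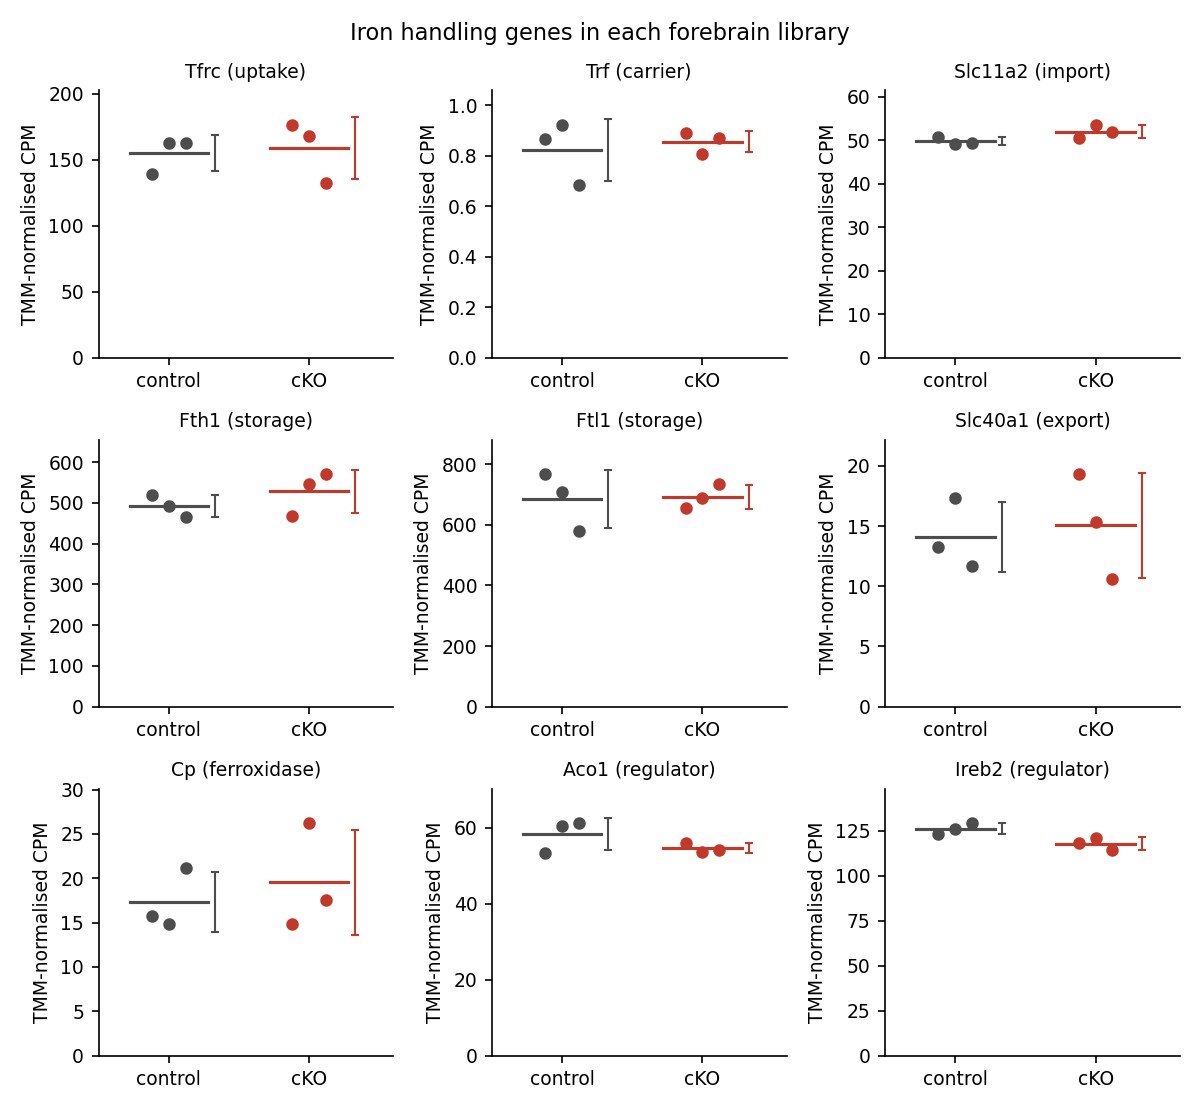
TMM-normalised CPM of each of the 9 genes, 1 panel a gene with its axis from 0; points are libraries (3 control in grey, 3 cKO in red, from replicate 1 at the left), lines the means and bars ± 1 SD. The groups overlap in 8 panels, and Ireb2 has its 3 cKO libraries (114 to 121 CPM) below the controls (123 to 129 CPM).

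Export genes had low levels and varied the most between mice. Ferroportin, Slc40a1 (ENSMUSG00000025993, chromosome 1, 45908068 to 45926523), was at 13.3, 17.3 and 11.7 CPM in controls and at 19.3, 15.3 and 10.6 CPM in cKO. Its highest and lowest libraries were both cKO, 1.81-fold apart. The log2 fold change was 0.09 (95% confidence interval -0.45 to 0.62, edgeR adjusted p = 0.965), and its sign turned to -0.05 without control replicate 3 and to -0.12 without cKO replicate 1.

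Ceruloplasmin, Cp (ENSMUSG00000003617, chromosome 3, 19957054 to 20009145), a copper ferroxidase made by astrocytes and choroid plexus, was at 15.8, 14.9 and 21.2 CPM in controls and at 14.8, 26.2 and 17.6 CPM in cKO. One cKO library, replicate 2, and control replicate 3 were high, and the rest lay close together. The log2 fold change was 0.18 (95% confidence interval -0.37 to 0.73, edgeR adjusted p = 0.93), and it was -0.09 without cKO replicate 2. The fibroblast markers summed to 538 CPM in cKO replicate 2, 516 and 373 CPM in cKO replicates 1 and 3 and 338 to 373 CPM in controls. Of these 10 markers 0 were called, against 0.266% of all genes, 9 were positive and none was at 0. For 3 the unadjusted p was under 0.05, against 6.27% of all genes, and in 2 the groups lay apart, against 11.9%. The choroid plexus markers summed to 841 to 913 CPM in cKO and 791 to 951 CPM in controls (0 of 10 called, none at 0), and the astrocyte markers to 3937 to 4266 and 3806 to 4125 CPM (0 of 10 called, none at 0). The part of any of them in the Cp values was not tested. Exons of Cp share 108 bases with Hps3 on the opposite strand.

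The messages of the iron regulatory proteins were not called, and both intervals crossed 0. Ireb2, the regulatory protein that is degraded when iron is plentiful (ENSMUSG00000032293, chromosome 9, 54863789 to 54912530), was at 123, 126 and 129 CPM in controls and at 118, 121 and 114 CPM in cKO. All 3 cKO libraries lay below all 3 controls. Means were 126 ± 3.10 and 118 ± 3.21 CPM (SD, n = 3 mice each), and the log2 fold change was -0.10 (95% confidence interval -0.22 to 0.03, edgeR adjusted p = 0.844).

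Aco1, the cytosolic aconitase that binds the hairpins once it has lost its iron-sulphur cluster (ENSMUSG00000028405, chromosome 4, 40143081 to 40198338), was at 53.4, 60.5 and 61.1 CPM in controls and at 56, 53.5 and 54.1 CPM in cKO. Control replicate 1 was as low as the cKO libraries, so the groups overlapped. Its log2 fold change was also -0.10 (95% confidence interval -0.25 to 0.06, edgeR adjusted p = 0.862). The intervals of both genes leave out a fall of more than 16.1% and a rise of more than 3.93%.

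**Figure D3:**
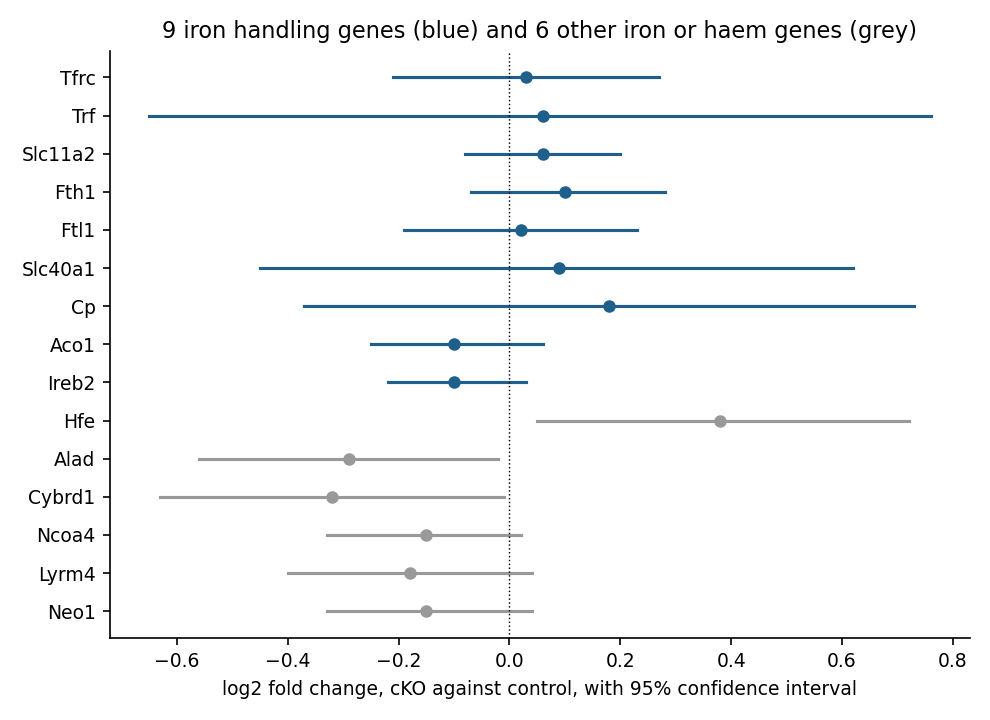
Log2 fold changes of cKO against control (points) with 95% confidence intervals (lines) from edgeR, for the 9 genes (blue) and the 6 other iron or haem genes with the smallest p (grey). Every blue interval crosses 0, and those of Trf, Cp and Slc40a1 are the widest (1.41, 1.10 and 1.07 log2 units). Grey intervals are not adjusted for the choice of these genes by p.

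Transferrin itself had few counts in every library. Trf (ENSMUSG00000032554, chromosome 9, 103204001 to 103230444) had 15, 20 and 15 counts in control replicates 1 to 3 and 18, 20 and 25 in cKO replicates 1 to 3, or 0.684 to 0.92 CPM over all libraries. That is 113 reads in all 6 libraries together, against 21036 for its receptor. The log2 fold change was 0.06 (95% confidence interval -0.65 to 0.76, edgeR adjusted p = 0.986), and it was -0.07 without control replicate 3. The interval spans a fall of 36.1% to a rise of 69.2%, the widest of the 9.

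The exons of Trf are shared with another gene of the annotation on the same strand. Gm20425 is a protein-coding gene whose 1 transcript is tagged as a read-through, joining exons of Trf to exons of the neighbouring Srprb. It covers 2108 of the 2571 bases of Trf-201 (82%) and 2074 of the 2339 bases of Trf-203 (88.7%). The length behind the deposited FPKM of Trf is the 2571 bases of Trf-201. Gm20425 is in the deposited table with 0 counts in every library. Srprb had 319 to 514 counts, and the share of its exon bases that lies in Gm20425 was not measured.

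Counting programs can leave out reads that fit more than 1 gene, and the setting used here is not given in the sources. Of the protein-coding genes in the table that are no read-through themselves, 62 share at least 50% of their exon bases with a read-through gene on the same strand. Their median level was 0.0994 FPKM, and 14.5% reached 1 FPKM. Among the 20586 protein-coding genes that share no exon base on their strand, the median was 2.96 FPKM and 60.4% reached 1 FPKM. These values are across genes in M21, which may not be the annotation of the counts, and whether Trf reads were left out was not tested. What part of the transferrin messages the Trf row holds is therefore not known.

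**Figure D4:**
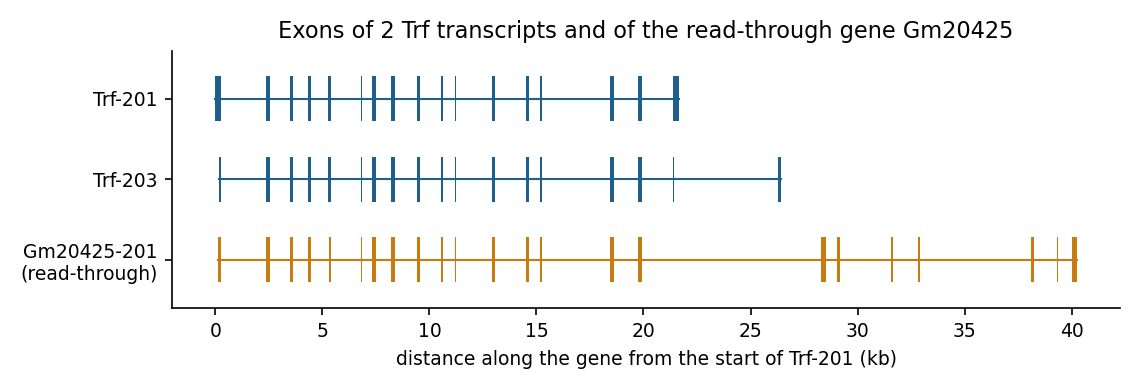
Exons (boxes) and introns (lines) of Trf-201, Trf-203 and the read-through transcript Gm20425-201, drawn to scale in kb from the start of Trf-201 in the direction of transcription. Boxes of Gm20425-201 lie under those of Trf over most of the gene, and most of what it lacks of Trf is at the ends.

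By the rule for likeness, the genes whose centred log2 CPM followed that of Trf most closely over the 6 libraries were Grip2, Pkig, Gucy1b1, Mfng and Ercc6, with root mean square differences of 0.02, 0.02, 0.03, 0.03 and 0.03. The pattern was not distinctive, since 8644 of the 15241 genes compared differed from it by less than 0.2.

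Against this, most listed genes of the oligodendrocyte lineage were lower in cKO in the same libraries. Mog (-0.00) and Aspa (0.02) stayed near 0 on the log2 scale, and Tcf7l2 was high in control replicate 3 alone (144 CPM). Of 31 tested genes in lists of precursor, newly formed and mature oligodendrocytes, 17 were called lower, against 0.266% of all genes called in either direction. The median log2 fold change of the 31 was -0.81. The 9 iron genes had 0 called and a median of 0.06. What part of their RNA came from the oligodendrocyte lineage is not known in RNA of the whole forebrain. These values therefore do not show whether iron genes changed within those cells. Mbp, the myelin basic protein gene, was at 277, 240 and 326 CPM in controls and at 111, 119 and 122 CPM in cKO, and fell by 1.26 on the log2 scale (adjusted p = 2.23e-04 by edgeR). These lists overlap with those by which the series was first examined, so the fall is given here only for scale, and the difference between the lists was not tested.

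The rest of the pathway gave no call either. Of 63 further genes of iron and haem handling, 55 passed the filter on low counts and 0 were called, against 0.266% of all genes. The 55 had a median log2 fold change of -0.00 (26 positive, 29 negative). At an unadjusted p under 0.05 there were 3, or 5.45% against 6.27% of all genes, and in 6 (10.9%) the groups lay apart, against 11.9%. Shares near those of all genes are no result about the list, and DESeq2 and limma-voom also called 0 of it. The 8 genes left out were Hamp and Hamp2 (hepcidins), Hp, Hpx, Ltf, Timd2, Hephl1 and Ftmt, which had at most 12 counts in any library.

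The 6 genes with the smallest p were Hfe, Alad, Cybrd1, Ncoa4, Lyrm4 and Neo1. Hfe, a partner of the transferrin receptors that resembles class I histocompatibility proteins, was at 4.56, 5.15 and 4.61 CPM in controls and at 5.92, 6.1 and 6.68 CPM in cKO. All cKO libraries lay above all controls, and the log2 fold change was 0.38 (95% confidence interval 0.05 to 0.72, edgeR adjusted p = 0.725). Hfe was named for its small p, and the interval is not adjusted for that choice. Alad, the second enzyme of haem synthesis, was at 13.9, 12.8 and 12.6 CPM in controls and at 12.3, 10.1 and 9.77 CPM in cKO, with all cKO libraries below all controls (log2 fold change -0.29, edgeR adjusted p = 0.768).

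Cybrd1, a ferrireductase, was at 23.7, 24.1 and 32.6 CPM in controls and at 24.5, 21.4 and 18.7 CPM in cKO, and its log2 fold change was -0.32 (edgeR adjusted p = 0.768). Control replicate 3 was its highest library, the groups overlapped, and the value was -0.16 without that library. Ncoa4, the receptor that takes ferritin to lysosomes, had -0.15, Lyrm4, a part of the iron-sulphur cluster machinery, had -0.18, and Neo1, the neogenin receptor that also binds hemojuvelin, had -0.15 (edgeR adjusted p from 0.835 to 0.839). The values of Ncoa4 and Neo1 were -0.09 and -0.05 when control replicate 3 was left out. Exons of Lyrm4 share 115 bases with Fars2 on the opposite strand.

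By role, no group held a called gene, against 0.266% called among all genes. The 11 genes of mitochondrial iron import and iron-sulphur clusters ran from -0.18 (Lyrm4) to 0.16 (Slc25a37) on the log2 scale, 5 positive and 6 negative. The 9 genes of haem synthesis ran from -0.29 (Alad) to 0.19 (Abcb6), 5 positive and 4 negative. The 8 tested genes of haem transport and breakdown ran from -0.05 (Hmox2) to 0.12 (Hmox1). All 5 tested genes of ferritin loading, turnover and sensing were negative, from -0.15 (Ncoa4) to -0.00 (Herc2), and 0 were called. The 6 tested reductases and ferroxidases ran from -0.32 (Cybrd1) to 0.59 (Steap4). Abcb6 had 18 to 29 counts per library and, like Trf, shares over 50% of its exon bases (55.2%) with a gene on the same strand.

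**Figure D5:**
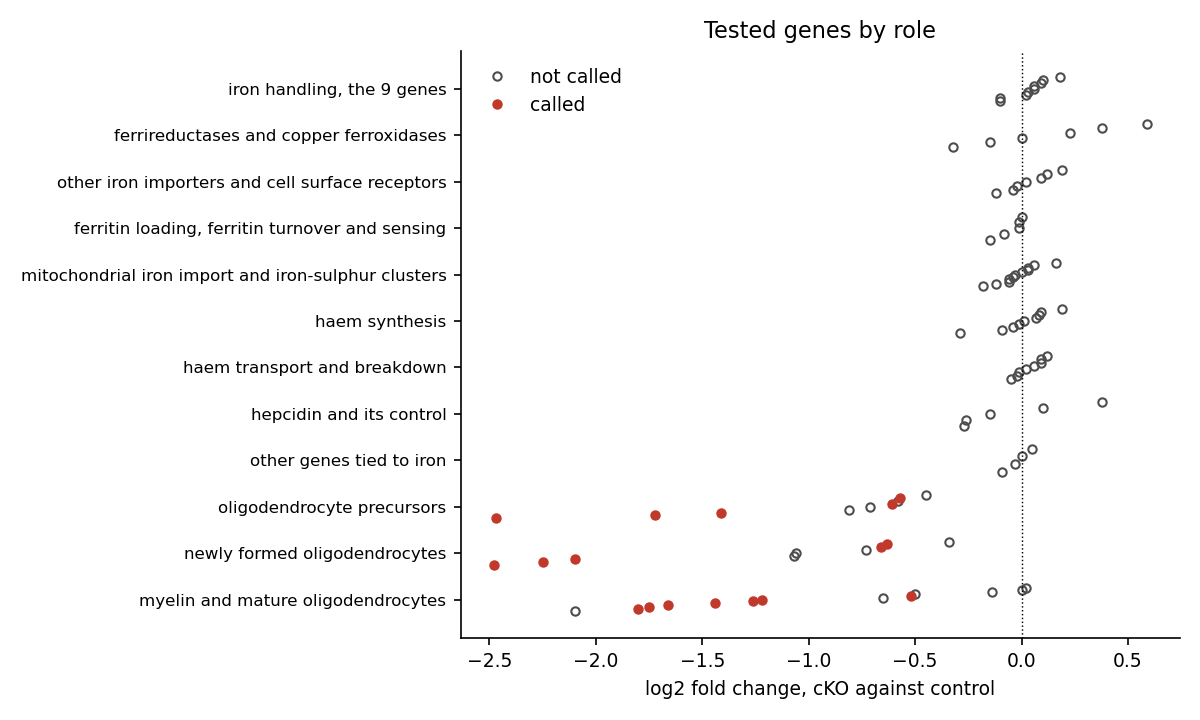
Log2 fold changes of all tested genes by role, with 1 circle a gene; filled red circles were called by edgeR and open circles were not. The 9 iron handling genes and the 55 others lie between -0.32 and 0.59 with none called, and the 3 oligodendrocyte lists below them have 17 called genes, all lower in cKO.

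Red blood cells left in the tissue bring iron and haem genes of their own and differed between libraries. The 9 matched blood markers summed to 188, 43.8 and 8.67 CPM in control replicates 1 to 3 and to 115, 18.7 and 9.74 CPM in cKO replicates 1 to 3. Of the 5 tested, 0 were called, against 0.266% of all genes, and none of the 9 was at 0. Tfrc is abundant in red cell precursors. Its lowest control, replicate 1, was the library with the most blood markers, and its lowest cKO library, replicate 3, was the cKO library with the fewest. The part of blood in these values was not tested.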

How the data were processed

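The deposited counts are whole reads per Ensembl gene, made by the authors. The submitters' processing notes name CASAVA, STAR 2.5, HTSeq 0.6.1, DESeq and mm10 but give no roles. How reads were assigned to genes, with which strand setting and annotation, is not given in the sources used here. The deposited FPKM values equal count over a fixed length per gene and the library total (100% of implied lengths whole within 0.01 bp), so they are the same measurement. Of 35275 identifiers, 34490 had a symbol. No 2 libraries agreed within sampling noise (chi-square per degree of freedom 4.34 to 23.8).

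cKO was compared with control by edgeR 4.0.16 (R 4.3.3) on the counts: filterByExpr (minimum count 10, total 15), TMM, quasi-likelihood test with robust dispersion, two-sided, Benjamini-Hochberg adjustment over 16938 genes, called under 0.05. The script was tested on simulated data. Intervals are at 95%. Ratios were tested by exact permutation.

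The members and lists were chosen with earlier results of these data known. Named were the 9 genes, any called gene and the 6 smallest p of the other iron list, and the 5 genes most like Trf. Abcb6, Herc2, Hmox1, Hmox2, Slc25a37, Steap4, Mbp, Prkcd and genes that overlap or were left out by the filter were named outside that rule. Alternatives were DESeq2 1.42.0 and its size factors, upper-quartile or library-size scaling, no filter or a mean of 1 CPM, limma-voom (limma 3.58.1), limma on log2 FPKM with a pseudocount of 1 or 0.1 (genes with mean FPKM from 0.5), a replicate block, and each library left out.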

Additional observations from a re-analysis of the deposited data

How the results depend on the processing

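Under 16 alternatives 0 of the 9 genes and 0 of the other iron and haem genes were called, and the smallest adjusted p of any of the 9 was 0.662. Of 141 values for the 9 genes, 132 kept their direction and 9 reversed, all when a library was left out. The ranges then were -0.05 to 0.14 for Tfrc, -0.07 to 0.15 for Trf, -0.10 to 0.11 for Ftl1, -0.12 to 0.29 for Slc40a1 and -0.09 to 0.35 for Cp. They were 0.04 to 0.18 for Fth1, 0.04 to 0.08 for Slc11a2, -0.16 to -0.07 for Aco1 and -0.12 to -0.08 for Ireb2. The log2 difference in the ratio of Tfrc to Fth1 ran from -0.24 to 0.11 and that of Fth1 to Ftl1 from 0.02 to 0.15. Scaling moved the median of all genes by under 0.01. The 45 genes called over the transcriptome became 111 with no filter, 113 with DESeq2, 24 on both FPKM scales and 28 to 60 with a library left out (28 without control replicate 1); the cause was not tested. Trf was under the filters on mean CPM and FPKM and has no value there. The 113 reads of Trf limit the precision of its value.

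With the replicate number as a block, 32 genes were called, none of them iron genes, and the log2 fold changes ran from -0.10 (Aco1, Ireb2) to 0.16 (Cp). The paired sign-flip test of the ratios gave differences of 0.07 (exact p = 0.5) and -0.07 (exact p = 0.75). Same-numbered libraries did not deviate together (correlations across genes of 0.004, -0.046 and 0.007). Differently numbered pairs of a cKO and a control library gave -0.076 to 0.093. These values cannot decide whether the numbers pair littermates, since control replicate 3 also differed in regional markers and no label gives the litter.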
